A study of Mus musculus with 2 samples.

Results

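The genes examined are 10 members of the osteoclast program and of the RANK axis, taken by symbol from the 32285 mouse genes of the count table: Acp5, Ctsk, Atp6v0d2, Oscar, Nfatc1, Ocstamp, Dcstamp, Tnfrsf11a, Tnfrsf11b and Tnfsf11. Their levels were read in 1 single-nucleus RNAseq library of the hematoma and callus of C57BL6 mice at day 5 after musculoskeletal traumatic injury (MTI), in which a tibial fracture is combined with injury of the adjacent muscle. Tibias of 3 or 4 mice of 10 to 14 weeks, males and females, were pooled before nuclei were sorted by a DNA dye, so animals could not be told apart. The other library of the series came from the same strain and tissues 1 day after a fracture without muscle injury. It differs in both injury and day and was not compared with it. As a single library was read, no replicate and no p-value can be given, and each interval is an exact interval at the 95% level that covers counting error only.

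Osteoclasts are multinucleated cells that resorb bone and mineralized cartilage, and they arise by fusion of precursors of the monocyte and macrophage lineage. Stromal and skeletal cells present the ligand RANKL (Tnfsf11), which binds the receptor RANK (Tnfrsf11a) on these precursors, while the secreted decoy receptor osteoprotegerin (Tnfrsf11b) captures RANKL. RANK signalling, with costimulation through receptors such as OSCAR, induces the transcription factor NFATc1, which drives fusion genes (Dcstamp, Ocstamp), the proton pump subunit Atp6v0d2 and the enzymes of resorption (Ctsk, Acp5). In a fracture callus these cells share their lineage and several of these genes with macrophages. Nuclei were named by clusters and other markers, and the co-detection of the genes in single nuclei was then compared between the named groups.

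The library held 1446 barcodes with 5899407 unique molecular identifiers (UMIs, each standing for 1 captured transcript molecule), from 500 to 45740 and with a median of 2245.5 UMIs per barcode. Filters on genes, mitochondrial and ribosomal UMIs left 1129 nuclei, and 1002 nuclei were retained after 127 myogenic nuclei had been set aside. Barcodes shared with the day 1 library made up 2.28% of those of the MTI library (33 barcodes). The doublet caller marked 0 of 1398 scored barcodes, so doublets were in effect not removed.

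Nuclei were clustered without the 10 genes, and the osteoclast name was given from 12 other markers, so that the genes did not choose the population in which they were read. A single cluster of 32 nuclei took the name, which was 3.19% of the retained nuclei (interval 2.19 to 4.48). Of the 12 markers, 11 were more than 2-fold above the other retained nuclei, with Slc9b2, a sodium/proton exchanger, at 102-fold, Calcr, the calcitonin receptor, at 48.1-fold and Jdp2, an AP-1 repressor, at 37.5-fold. Among retained nuclei Siglec15 was seen in these alone, with 25 UMIs, and the interval of its ratio over the others starts at 95.6. Ostm1 was at 0.970-fold (0.347 to 2.19). The 10 genes with the largest ratio in this cluster, which describe it and are no result, were Tmem267, Oscar, Mst1r, Dcstamp, Nyap2, Siglec15, Ocstamp, Coq8a, Slc9b2 and Slc18a1. The markers thus carry the osteoclast label, and the nuclei are called osteoclast-like below. Where each nucleus was named by its own marker UMIs, without clusters, 74 nuclei took the name, and fewer of them held the genes together (52.7% with at least 3 of 8).

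The other populations were 144 macrophage-like nuclei in 2 clusters (led by Ccl8/Cd163 with 69 nuclei and by Dnase1l3/Gpr162 with 75 nuclei), 177 skeletal lineage-like nuclei in 2 clusters (led by Col9a1/Matn3 with 109 nuclei and by Pi15/Adamts15 with 68 nuclei), 84 neutrophil-like, 36 endothelial-like and 32 erythroid-like nuclei. Another 252 immune-like nuclei had no finer name and are called by their leading genes, Hmox1/Ptgr1 (92 nuclei), Ankrd37/Olr1 (76 nuclei), Klri1/P2ry10 (50 nuclei) and Mmp12/Gpnmb (34 nuclei). Clusters led by Clic6/Elf5 (180 nuclei) and by Hspa1a/Ttn (65 nuclei) stayed unnamed. Median depth differed, at 6937 UMIs in osteoclast-like, 3733.5 in macrophage-like, 5342 in Mmp12/Gpnmb-led and 747.5 in neutrophil-like nuclei. Levels are therefore given as the UMIs of a gene per 1000000 UMIs of the population (CPM). For the members other than Tnfrsf11b and Tnfsf11, shares of nuclei with a UMI are also given after each nucleus had been thinned to 500 UMIs, a depth that every nucleus reached.

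The upstream sequences of 3 members are shown first because their genes stand for both patterns on the osteoclast side. Among retained nuclei, Ctsk and Oscar had most of their UMIs in osteoclast-like nuclei. Tnfrsf11a was spread over macrophage-like, most other immune-like and erythroid-like nuclei, with few UMIs in neutrophil-like nuclei. Windows of 250 bases before the annotated start were read from RefSeq (GRCm38.p6), which held windows for 5 of the 10 members. They are Ctsk at chr3:95498960-95499209 on the plus strand, Oscar at chr7:3616158-3616407 on the minus strand and Tnfrsf11a at chr1:105780473-105780722 on the plus strand. Each runs 5′ to 3′ toward its gene, and capitals mark CG pairs.
Ctsk: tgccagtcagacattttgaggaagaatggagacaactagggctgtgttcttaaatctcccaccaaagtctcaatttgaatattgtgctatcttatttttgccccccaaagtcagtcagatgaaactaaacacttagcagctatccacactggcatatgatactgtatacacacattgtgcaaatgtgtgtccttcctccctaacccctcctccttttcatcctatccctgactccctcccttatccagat
Oscar: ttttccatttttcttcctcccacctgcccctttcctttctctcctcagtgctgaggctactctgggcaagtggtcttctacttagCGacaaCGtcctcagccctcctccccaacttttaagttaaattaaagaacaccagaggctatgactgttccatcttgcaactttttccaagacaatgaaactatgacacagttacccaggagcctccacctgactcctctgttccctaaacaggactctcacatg
Tnfrsf11a: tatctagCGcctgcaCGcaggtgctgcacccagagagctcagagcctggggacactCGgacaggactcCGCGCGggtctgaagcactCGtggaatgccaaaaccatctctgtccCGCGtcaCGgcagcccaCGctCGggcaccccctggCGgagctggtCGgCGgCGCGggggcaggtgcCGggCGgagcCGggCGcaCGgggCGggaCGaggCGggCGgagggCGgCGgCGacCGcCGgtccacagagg
The Ctsk window held 0 CG pairs and 43.2% G or C, the Oscar window 2 CG pairs and 47.2%, and the Tnfrsf11a window 31 CG pairs and 73.6%. Over all 32851 windows of this length the median was 6 CG pairs and 52.4% G or C, 92.1% of windows held a CG pair, and 5.19% held at least as many as Tnfrsf11a. The windows at the 3 annotated starts of Acp5 had 4, 5 and 12 CG pairs, and that of Tnfsf11 had 4. The letters TGANTCA, the core of an AP-1 site, were on neither strand of any of these windows (6.75% of all windows hold them). The letters GGAAA, the core of an NFAT site, matched 3 times before Oscar and 0 times before Ctsk and Tnfrsf11a, where 55.6% of all windows hold at least 1 match. The letters GAGGAA, the core of a PU.1 site, matched 2 times before Ctsk, 1 time before Oscar and 0 times before Tnfrsf11a, against 23.3% of all windows with a match. Both strands were searched, and GGAAA and GAGGAA can share letters. A match describes the sequence and is not a measured site.

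Osteoclast-like nuclei held UMIs of all 8 osteoclast-side genes, and all 8 were at least 2-fold above macrophage-like nuclei. Of the 8034 genes with at least 10 UMIs in both groups together, 16.7% were at least 2-fold higher and 22.7% at least 2-fold lower in osteoclast-like nuclei. The median ratio of the 8 genes was 44.9, with 2 of them taken at their lower bound, and that of all genes compared was 0.943. Acp5, Ctsk, Oscar, Ocstamp and Dcstamp had fewer than 10 UMIs in macrophage-like nuclei and could enter the comparison through osteoclast-like nuclei alone, so the count describes these genes and supports nothing more. Summed over the 8 genes, osteoclast-like nuclei had 1829 UMIs and macrophage-like nuclei 445 UMIs, a ratio of 11.6 (10.5 to 12.9).

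**Figure D1:**
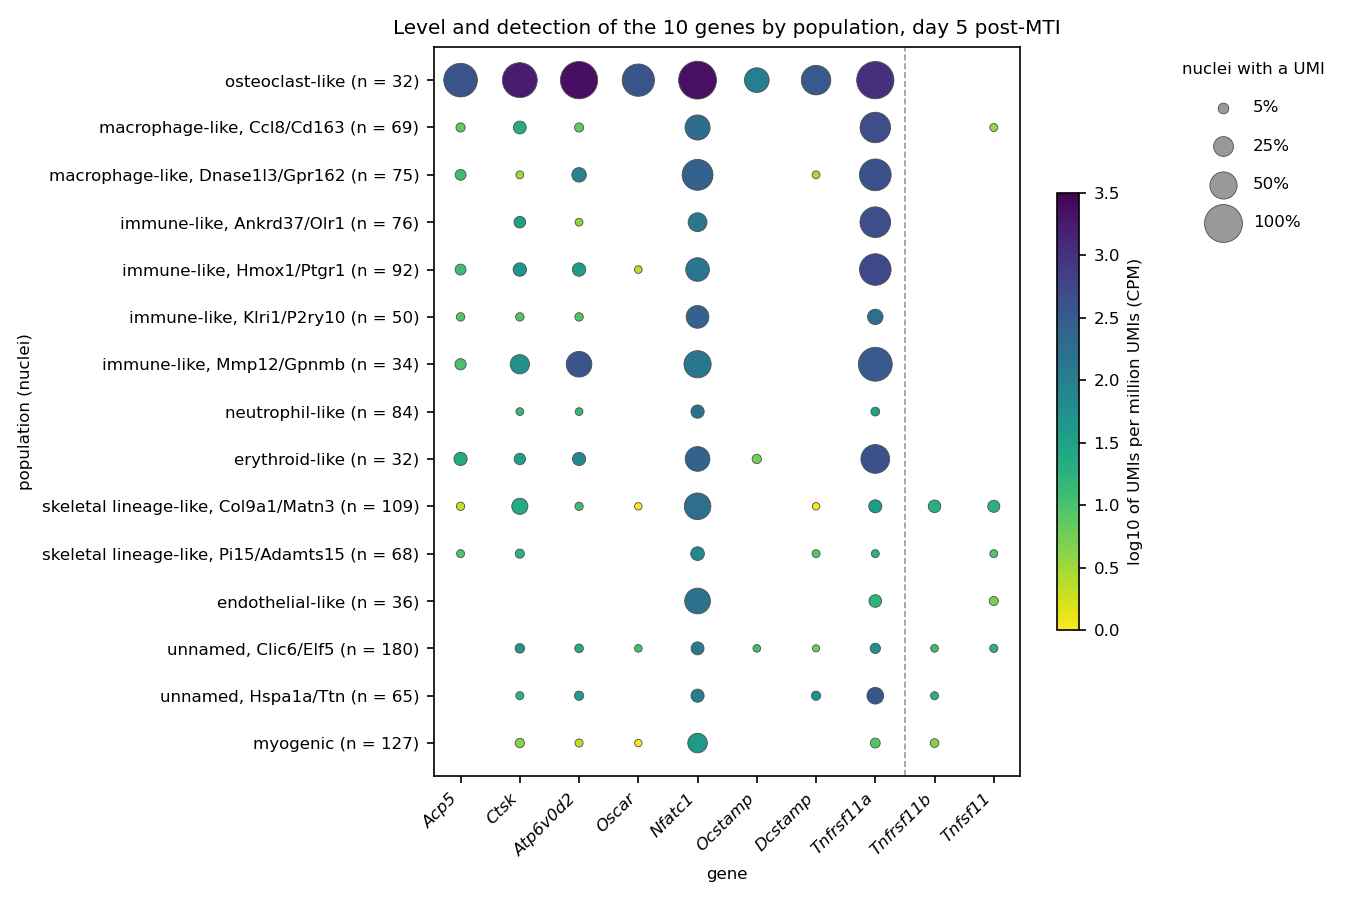
Level and detection of the 10 genes (columns) in 15 populations of the day 5 post-MTI library (rows, with the number of nuclei). Color gives the log10 of the CPM, circle size grows with the share of nuclei with at least 1 UMI at the deposited depth, and no circle is drawn at 0 UMIs. The 8 osteoclast-side genes are darkest in the 32 osteoclast-like nuclei, Nfatc1 and Tnfrsf11a also fill other rows, and Tnfrsf11b and Tnfsf11 appear as small circles, largest in the Col9a1/Matn3-led skeletal cluster.

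The enzymes of resorption stood far above macrophages. Ctsk (chr3:95499256-95509362 in mm10, the build of all gene positions given), the cysteine protease that digests bone collagen, had 358 UMIs in osteoclast-like nuclei, a level of 1685 CPM (1515 to 1869), and was detected in 27 of 32 nuclei. Macrophage-like nuclei had 7 Ctsk UMIs in 144 nuclei (11.7 CPM, 4.68 to 24.0), which made a ratio of 145 (69.5 to 362). Osteoclast-like nuclei held 80.8% of the Ctsk UMIs of all retained nuclei. The next levels were 55.0 CPM (27.4 to 98.3) in Mmp12/Gpnmb-led, 47.2 CPM (20.4 to 93.0) in Clic6/Elf5-led and 46.8 CPM (28.2 to 73.1) in Hmox1/Ptgr1-led nuclei, whose intervals overlapped, and 10 of the 19 Ctsk UMIs of the Hmox1/Ptgr1-led cluster came from 1 nucleus. The Col9a1/Matn3-led skeletal cluster had 21 Ctsk UMIs in 17 of 109 nuclei (22.9 CPM, 14.1 to 34.9), with at most 2 in a nucleus, where myogenic nuclei, of like depth, had 4 UMIs in 4 of 127 nuclei (4.42 CPM, 1.203 to 11.3). Thinned to 500 UMIs, 40.6% of osteoclast-like nuclei kept a Ctsk UMI, against 0.694% of macrophage-like nuclei. Of the Col9a1/Matn3-led and of the myogenic nuclei 0% kept one, so the thinned shares do not show their difference. The median depth of myogenic nuclei at deposit was 6257 UMIs.

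Acp5 (chr9:22126727-22135711), which encodes tartrate-resistant acid phosphatase, the enzyme stained to show osteoclasts, had 87 UMIs in 25 of 32 osteoclast-like nuclei (409 CPM, 328 to 505). Macrophage-like nuclei had 6 Acp5 UMIs in 6 nuclei (9.98 CPM, 3.66 to 21.7), and the ratio was 41.0 (18.1 to 115). Each other retained population had 5 Acp5 UMIs or fewer. Thinned, 15.6% of osteoclast-like and 0% of macrophage-like nuclei kept an Acp5 UMI. An annotated gene on the opposite strand, 6530413G14Rik, overlaps Acp5, and no gene overlaps it on its own strand.

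Atp6v0d2 (chr4:19876841-19922605), a subunit of the vacuolar proton pump that acidifies the resorption space, had 500 UMIs in 31 of 32 osteoclast-like nuclei (2353 CPM, 2151 to 2568). Its level in macrophage-like nuclei was 48.2 CPM (32.3 to 69.3), a ratio of 48.8 (33.5 to 73.6). The macrophage-like clusters differed, with 27 Atp6v0d2 UMIs in 9 of 75 Dnase1l3/Gpr162-led nuclei (83.4 CPM, 55.0 to 121) and 2 UMIs in 69 Ccl8/Cd163-led nuclei (7.21 CPM, 0.874 to 26.1). Among the populations outside the osteoclast-like cluster, the highest level of Atp6v0d2 was in Mmp12/Gpnmb-led nuclei, with 76 UMIs in 15 of 34 nuclei and at most 13 in 1 nucleus (380 CPM, 299 to 475). That was 7.87 times macrophage-like nuclei (5.07 to 12.5) and still 6.20-fold below osteoclast-like nuclei (4.86 to 8.00). Thinned, 65.6% of osteoclast-like, 2.08% of macrophage-like and 14.7% of Mmp12/Gpnmb-led nuclei kept an Atp6v0d2 UMI. The ratios of both genes over macrophage-like nuclei moved with the choice of nuclei while staying far above 2. With each nucleus named by its own markers, Ctsk was at 38.6 and Atp6v0d2 at 15.3, and with the top 10% of doublet scores left out they were at 65.9 and 19.5.

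The fusion genes and the costimulatory receptor had the highest shares of their retained UMIs in osteoclast-like nuclei, for Ocstamp on 25 UMIs only. Oscar (chr7:3609813-3616157), an immunoglobulin-like receptor that signals through the ITAM adaptor FcRγ, had 84 UMIs in 23 of 32 osteoclast-like nuclei (395 CPM, 315 to 489) and 0 UMIs in macrophage-like nuclei, where a count of 0 allows 4.99 CPM. Against that floor of 3 UMIs over the group, Oscar was 79.2-fold higher in osteoclast-like nuclei, with an exact interval that starts at 63.0. Osteoclast-like nuclei held 95.5% of the Oscar UMIs in retained nuclei. With nuclei under 0.5% mitochondrial UMIs alone, where fewer macrophage-like nuclei set the floor, the ratios against the floor were 29.4 for Oscar, 7.24 for Ocstamp and 25.9 for Dcstamp. Dcstamp (chr15:39745930-39760938), a membrane protein needed for the fusion of precursors, had 71 UMIs in 19 of 32 osteoclast-like nuclei (334 CPM, 261 to 421) and 1 UMI in macrophage-like nuclei. The ratio of Dcstamp was 201, with an interval from 34.9 to 8043 that reflects this single UMI. Ocstamp (chr2:165393760-165400405), a related fusion protein, had 22 UMIs in 13 of 32 osteoclast-like nuclei (104 CPM, 64.9 to 157) and 0 UMIs in macrophage-like nuclei. Its ratio against the floor was 20.7, with an interval that starts at 15.5. Osteoclast-like nuclei held 91.0% of the Dcstamp and 88% of the Ocstamp UMIs of the retained nuclei. Outside them, Oscar had 4 UMIs, Ocstamp 3 and Dcstamp 7 in 970 nuclei.

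Nfatc1, the transcription factor at the end of the RANK cascade, was high in osteoclast-like nuclei and present in every other population. It had 484 UMIs and was detected in 32 of 32 osteoclast-like nuclei (2277.5 CPM, 2079 to 2490), with up to 66 UMIs in 1 nucleus. In macrophage-like nuclei it had 134 UMIs in 78 of 144 nuclei (223 CPM, 187 to 264), a ratio of 10.2 (8.42 to 12.5). In the other retained populations, Nfatc1 lay between 74.0 CPM in Pi15/Adamts15-led and 269.5 CPM in Klri1/P2ry10-led nuclei, with 160 CPM in endothelial-like nuclei (107 to 230). Myogenic nuclei, which are not among the retained, had 41.95 CPM (29.7 to 57.6). In the Col9a1/Matn3-led cluster, 1 nucleus of 13568 UMIs held 30 of the 160 Nfatc1 UMIs and no other osteoclast-side gene. Osteoclast-like nuclei held 46.5% of the Nfatc1 UMIs of the retained nuclei. Thinned, 75% of osteoclast-like, 11.8% of macrophage-like and 3.15% of myogenic nuclei kept an Nfatc1 UMI. A gene on the opposite strand, AC123818.1, overlaps Nfatc1.

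Tnfrsf11a (chr1:105780718-105847981), which encodes RANK, had the lowest ratio of the 8 genes between osteoclast-like and macrophage-like nuclei. It had 223 UMIs in 31 of 32 osteoclast-like nuclei (1049 CPM, 916 to 1197) and 268 UMIs in 96 of 144 macrophage-like nuclei (446 CPM, 394 to 503), a ratio of 2.35 (1.96 to 2.82). With nuclei under 0.5% mitochondrial UMIs alone the ratio was 1.64 (1.31 to 2.06), below the 2-fold limit. The next levels in order were 535 CPM in Hmox1/Ptgr1-led, 470 CPM in Ankrd37/Olr1-led, 465 CPM in Ccl8/Cd163-led, 430 CPM in erythroid-like, 429 CPM in Dnase1l3/Gpr162-led, 354 CPM in Hspa1a/Ttn-led and 320 CPM in Mmp12/Gpnmb-led nuclei. The intervals of neighbours in this order overlapped, from 466 to 611 CPM for the first to 246 to 408 CPM for the last. The erythroid-like nuclei also carried macrophage genes, with 490 CPM of Adgre1 and 556 CPM of Mrc1, and the part of these in their Tnfrsf11a level was not tested. Tnfrsf11a was lower in Klri1/P2ry10-led nuclei (171 CPM, 103 to 266.5) and lowest in skeletal lineage-like (35.0 CPM, 24.6 to 48.5, with 13 of 36 UMIs in 1 nucleus), neutrophil-like (28.7 CPM, 3.47 to 104), endothelial-like (16.6 CPM, 3.42 to 48.4) and myogenic nuclei (8.83 CPM, 3.81 to 17.4). Osteoclast-like nuclei held 21.3% of its UMIs in retained nuclei, the lowest share of the 8 genes. Thinned, 46.9% of osteoclast-like, 19.4% of macrophage-like and 0.787% of myogenic nuclei kept a Tnfrsf11a UMI.

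**Figure D2:**
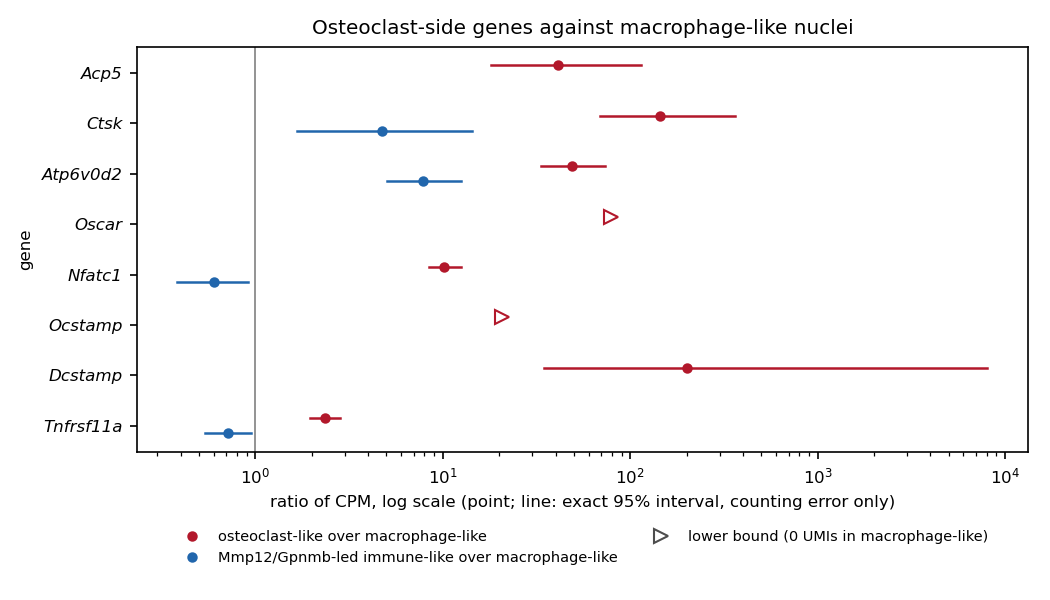
Ratio of CPM on a log axis for the 8 osteoclast-side genes. Red compares the 32 osteoclast-like with the 144 macrophage-like nuclei, blue the 34 Mmp12/Gpnmb-led immune-like with the macrophage-like nuclei, shown for the 4 genes with at least 10 UMIs in both groups together; lines are exact 95% intervals and open triangles lower bounds. Red points run from 2.35 for Tnfrsf11a to 201 for Dcstamp, and blue points lie above 1 for Ctsk and Atp6v0d2 and below 1 for Nfatc1 and Tnfrsf11a.

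Because nuclear RNA includes introns, levels between genes were set side by side per kilobase of gene body. On this scale Ctsk led in osteoclast-like nuclei with 167 CPM per kb, followed by Oscar with 62.3, Atp6v0d2 with 51.4, Acp5 with 45.6, Dcstamp with 22.3 and Nfatc1 with 21.3 CPM per kb. Tnfrsf11a and Ocstamp came last, each with 15.6 CPM per kb. By CPM alone, Atp6v0d2 (2353) and Nfatc1 (2277.5) stood above Ctsk (1685), so the order depends on the scaling. The kit counts UMIs from transcript ends, and whether they scale with gene length was not tested. No annotated gene overlapped any of the 10 members on the same strand.

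The 34 Mmp12/Gpnmb-led nuclei held more Atp6v0d2 and Ctsk than macrophage-like nuclei and had no UMIs of the fusion genes. Of their 4 osteoclast-side genes with at least 10 UMIs in the comparison with macrophage-like nuclei, 2 were at least 2-fold higher, against 9.72% of 7805 genes, and of these Ctsk had fewer than 10 UMIs in macrophage-like nuclei and entered through the higher group. Atp6v0d2 is given above, and Ctsk was at 4.72 times the macrophage-like level (1.67 to 14.4, 11 against 7 UMIs). Nfatc1 was at 0.605 times (0.385 to 0.920) and Tnfrsf11a at 0.717 times (0.537 to 0.945) the macrophage-like level. Oscar, Ocstamp and Dcstamp had 0 UMIs in these nuclei, where a count of 0 allows 14.99 CPM. Compared with them, osteoclast-like nuclei were at least 2-fold higher in all 8 genes, 4 of which had fewer than 10 UMIs in Mmp12/Gpnmb-led nuclei, against 20.2% of 5985 genes, with Nfatc1 at 16.9-fold (11.5 to 25.9) and Ctsk at 30.7-fold (16.9 to 62.0). Of the macrophage genes, Mertk, a receptor for the uptake of dying cells, was at 1094 CPM in Mmp12/Gpnmb-led and 18.8 CPM in osteoclast-like nuclei. In the same order, Mrc1 was at 689 and 14.1 CPM and Adgre1 at 515 and 32.9 CPM. Csf1r went the other way, at 175 and 583.5 CPM. For Cd68 the intervals overlapped (65.0 CPM, 34.6 to 111, and 37.6 CPM, 16.25 to 74.2), and Cd163 had 0 UMIs in both groups.

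Single nuclei were then scored by how many of the 8 osteoclast-side genes had a UMI. Osteoclast-like nuclei had a median of 7 genes (2 to 8), and 13 of 32 nuclei had all 8. At least 3 genes were detected in 31 of 32 osteoclast-like nuclei (96.9%, 83.8 to 99.9), in 14 of 144 macrophage-like nuclei (9.72%, 5.42 to 15.8) and in 11 of 34 Mmp12/Gpnmb-led nuclei (32.4%, 17.4 to 50.5). At least 3 genes were found in 0 of 127 myogenic nuclei, which are deep, and in 0 of 84 neutrophil-like nuclei, which are shallow. Thinned to 500 UMIs, at least 3 genes remained in 21 of 32 osteoclast-like nuclei (65.6%, 46.8 to 81.4), in 0 of 144 macrophage-like nuclei (up to 2.53%) and in 0 of 34 Mmp12/Gpnmb-led nuclei (up to 10.3%). At equal depth the groups therefore stood apart, although the deposited depth was higher in osteoclast-like nuclei.

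**Figure D3:**
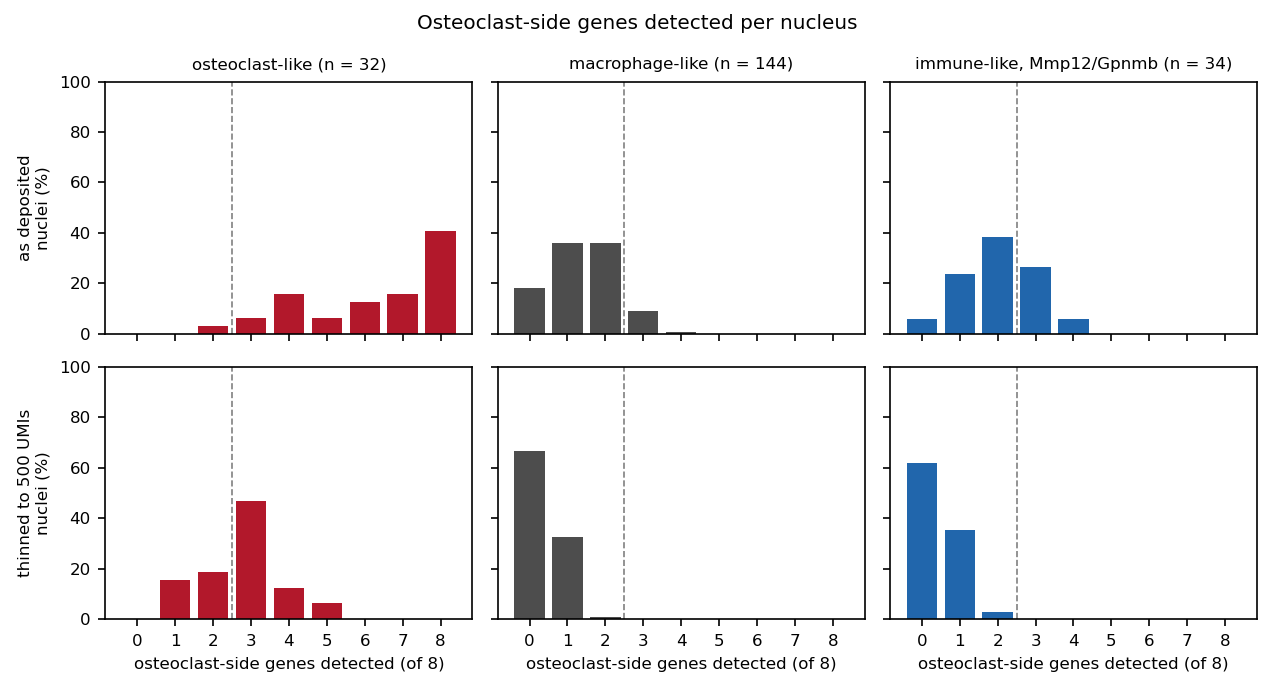
Share of nuclei (percent) by the number of osteoclast-side genes with at least 1 UMI, at the deposited depth (top) and after thinning each nucleus to 500 UMIs (bottom). The dashed line marks the threshold of 3 genes. It was passed by 31 of 32 osteoclast-like, 14 of 144 macrophage-like and 11 of 34 Mmp12/Gpnmb-led nuclei at the deposited depth, and by 21, 0 and 0 nuclei after thinning.

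Among all 1002 retained nuclei, 73 had at least 3 of the 8 genes, of which 31 were osteoclast-like. With at least 4 genes the counts were 35 and 29 nuclei, with at least 5 genes 25 and 24 nuclei, and with at least 6 genes 22 and 22 nuclei. The single nucleus outside the cluster with 5 genes was erythroid-like. The 42 nuclei outside the osteoclast-like cluster with at least 3 genes drew on the widely detected members, Tnfrsf11a in 40 and Nfatc1 in 39 of them, with Atp6v0d2 in 22, Ctsk in 18 and Acp5 in 11. Of these 42 nuclei, 2 had Dcstamp, 1 had Ocstamp and 0 had Oscar.

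In osteoclast-like nuclei Oscar, Dcstamp and Ocstamp were found in nuclei that held other members. Each of the 23 nuclei with Oscar and of the 19 with Dcstamp also had Ctsk, which was detected in 27 of 32 nuclei. Ocstamp was detected in 13 nuclei, and each of these had all of the other 7 genes. The part of depth in this overlap was not tested. In the 16 deepest osteoclast-like nuclei the median was 8 genes (5 to 8), and in the 16 shallowest it was 4.5 genes (2 to 8). The summed UMIs of the 8 genes per 10000 UMIs did not follow that split as closely, with a median of 86.7 (36.1 to 140) in the deepest and 70.0 (36.9 to 156) in the shallowest nuclei. Over all 32 nuclei this value ran from 36.1 to 156 with a median of 78.4. The median was 6.68 in macrophage-like nuclei (0 to 44.7), so the ranges overlapped between 36.1 and 44.7. The 2 osteoclast-like nuclei with the fewest genes for their depth had 5329 UMIs with 3 genes and 2061 UMIs with 2 genes, and both lacked Ctsk, Acp5, Oscar, Ocstamp and Dcstamp.

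The macrophage genes scored in single nuclei gave the reverse picture. Of 7 macrophage genes (Adgre1, Mrc1, Fcgr1, Mertk, C1qa, C1qb and Cd163), at least 2 were detected in 1 of 32 osteoclast-like nuclei (3.13%, 0.0791 to 16.2) and in 136 of 144 macrophage-like nuclei (94.4%, 89.4 to 97.6). The median osteoclast-like nucleus had 0 of these genes, and the 1 exception, of 14697 UMIs, had 3 of them beside 7 osteoclast-side genes. At least 2 macrophage genes were also detected in 33 of 34 Mmp12/Gpnmb-led nuclei (97.1%). Of the 42 nuclei outside the osteoclast-like cluster with at least 3 osteoclast-side genes, 35 had at least 2 macrophage genes. All 7 genes were also among the markers that named the macrophage-like clusters, so their level and co-detection there are no result. In osteoclast-like nuclei Mrc1, the mannose receptor, was at 14.1 CPM, Adgre1, which encodes F4/80, at 32.9 CPM and Mertk at 18.8 CPM, and Fcgr1, C1qa, C1qb and Cd163 had 0 UMIs. Cd68 and Csf1r were on the same list of naming markers but were left out of the 7 scored genes, and neither was lower beyond its interval. Cd68, a lysosomal protein of both lineages, was at 0.780 times the macrophage-like level (0.308 to 1.75). Csf1r, the receptor for the survival factor CSF1, was at 1.53 times (1.22 to 1.91). The reverse picture therefore holds for the 7 genes and not for every macrophage marker.

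**Figure D4:**
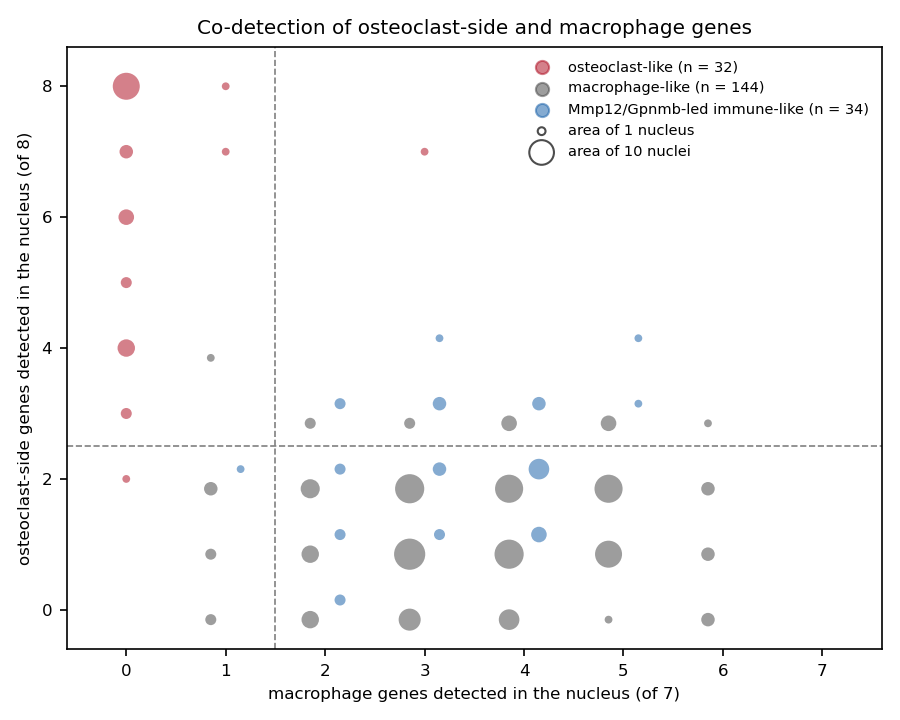
Number of macrophage genes (x axis, of 7) against number of osteoclast-side genes (y axis, of 8) with a UMI in the same nucleus, for osteoclast-like (red), macrophage-like (grey) and Mmp12/Gpnmb-led nuclei (blue). Circle area is proportional to the number of nuclei, groups are offset slightly for visibility, and dashed lines mark 2 macrophage and 3 osteoclast-side genes. Of the osteoclast-like nuclei, 31 of 32 lie left of the vertical line, and 136 of 144 macrophage-like nuclei lie right of it. All 7 macrophage genes were among the markers that named the macrophage-like clusters, and they were not left out of the clustering.

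The ligand and the decoy receptor were at low level, with most of their retained UMIs in skeletal lineage-like nuclei. Tnfrsf11b (chr15:54250619-54278484) had 18 UMIs in 9 of 109 Col9a1/Matn3-led nuclei (19.6 CPM, 11.6 to 31.0), which was 16.5 times the level of all other retained nuclei (4.81 to 87.3, 18 against 3 UMIs). Tnfsf11 (chr14:78277445-78308043) had 17 UMIs in 8 of these nuclei (18.5 CPM, 10.8 to 29.6), 7.78 times the others (2.93 to 24.1, 17 against 6 UMIs). Both stromal-side genes were at least 2-fold higher there, against 17.3% of 14255 genes, but neither had 10 UMIs outside the cluster, so each could enter the comparison through it alone. The myogenic nuclei, which are not among the retained, had 4 Tnfrsf11b UMIs in 3 of 127 nuclei (4.42 CPM, 1.203 to 11.3) and 0 Tnfsf11 UMIs. The shallow unnamed clusters had similar levels on few UMIs. Clic6/Elf5-led nuclei had 3 Tnfsf11 UMIs (17.7 CPM, 3.65 to 51.7) and 2 Tnfrsf11b UMIs (11.8 CPM, 1.43 to 42.6). Hspa1a/Ttn-led nuclei had 1 Tnfrsf11b UMI (17.7 CPM, 0.448 to 98.7). The ratios over all other nuclei therefore do not show a restriction to the skeletal lineage. For Tnfsf11, 7 of the 17 UMIs came from 1 nucleus, and without it the level was 11.0 CPM (5.27 to 20.2) and the ratio 4.63 (1.52 to 15.5). For Tnfrsf11b, without the nucleus with 6 UMIs, the level was 13.3 CPM (6.85 to 23.2). Per kilobase of gene body both genes were alike in level, with 0.703 CPM per kb for Tnfrsf11b and 0.605 CPM per kb for Tnfsf11.

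Osteoprotegerin (Tnfrsf11b) was detected in 9 and RANKL (Tnfsf11) in 8 of the 109 Col9a1/Matn3-led nuclei, with 1 nucleus having both. So few nuclei held either gene that this overlap cannot show whether the genes are kept apart. Many nuclei with either gene held a single UMI, so a nucleus without one cannot be read as lacking it. Median depth was 11974 UMIs in the 9 nuclei with Tnfrsf11b, 8747 UMIs in the 8 nuclei with Tnfsf11 and 7369 UMIs in the 93 nuclei of the cluster with neither, and the part of depth in the shares that follow was not tested. Of the osteoblast genes, the transcription factor Sp7 was detected in 7 of 9 nuclei with Tnfrsf11b, in 1 of 8 with Tnfsf11 and in 9.68% of those with neither. Alpl was detected in 4, 1 and 11.8%, and the later genes Ibsp, Ifitm5 and Bglap in at most 1 nucleus with Tnfrsf11b and at most 1 with Tnfsf11 each. Of the cartilage genes, Acan was detected in 5 of 9 nuclei with Tnfrsf11b, in 1 of 8 with Tnfsf11 and in 20.4% of those with neither, and Sox9 in 5, 3 and 25.8%. The fibroblast matrix genes were common in all of these nuclei. Postn was detected in 7 of 9, 8 of 8 and 81.7%, Col3a1 in 9 of 9, 8 of 8 and 94.6%, Col5a1 in 9 of 9, 6 of 8 and 89.2%, and Aspn in 5 of 9, 7 of 8 and 68.8% of them. Osteoclast-like nuclei had 0 UMIs of either gene, and a count of 0 allows 14.1 CPM there, a level close to that of the skeletal cluster, so their absence from osteoclast-like nuclei was not detectable at this depth. Macrophage-like nuclei had 1 Tnfsf11 UMI and 0 Tnfrsf11b UMIs, and the Pi15/Adamts15-led skeletal cluster 1 Tnfsf11 UMI and 0 Tnfrsf11b UMIs. The cluster difference in depth is large, with 919032 UMIs in Col9a1/Matn3-led and 108184 UMIs in Pi15/Adamts15-led nuclei.

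The wider RANK pathway was read from gene lists in the same comparison of osteoclast-like with macrophage-like nuclei, for which the shares of all genes are given above. Of 15 RANK signal transduction genes compared, 1 was at least 2-fold higher and 3 at least 2-fold lower, with a median of 0.884 beside 0.943 for all genes. The higher one was Traf6, the adaptor that RANK recruits (3.34, 1.82 to 6.19). The lower ones, named like all lower genes below after their values were seen, were the NF-kB kinases Chuk (0.427) and Map3k14 (0.231) and the NF-kB subunit Rela (0.369, on 3 UMIs against 23). Relb, of the noncanonical NF-kB pathway, was at 1.56 (0.981 to 2.44) and Mapk8, which encodes the kinase JNK1, at 1.54 (0.897 to 2.59). Of 9 ITAM and calcium signalling genes compared, 0 were higher and 2 lower, with a median of 0.679, and the highest were Creb1 at 1.09 (0.783 to 1.49), Btk at 0.987 (0.660 to 1.45) and Tec at 0.969 (0.716 to 1.30). The lower ones were Fcer1g, the FcRγ adaptor of OSCAR, at 0.422 (0.194 to 0.825) and the receptor Trem2 at 0.173 (0.0345 to 0.537).

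Of 8 osteoclast transcription factors compared, 2 were at least 2-fold higher and 1 lower, where 16.7% of all genes were higher and 22.7% lower. Fosl2, an AP-1 subunit, was at 18.7 times the macrophage-like level (11.3 to 32.6) and Prdm1, which encodes the repressor BLIMP1, at 11.0 times (7.21 to 17.3). Fos, which is needed for osteoclast formation, was at 1.63 (0.973 to 2.66), and the lower gene was Nfatc2, another NFAT factor, at 0.0419 (0.00502 to 0.154), where its relative Nfatc1 was at 10.2. The median of the list was 1.12. Of 5 repressors of osteoclast differentiation, 1 was higher and 2 lower, with a median of 0.544. The highest ratios among them were Tnfaip3, an inhibitor of NF-kB signalling, at 2.00 (1.01 to 3.89), Bcl6 at 0.585 (0.286 to 1.10) and Cyld at 0.544 (0.291 to 0.953). The lower repressors were Irf8, a transcription factor of the monocyte and macrophage lineage, at 0.0484 (0.00579 to 0.179) and Rbpj, the transcription factor of Notch signalling, at 0.119 (0.0846 to 0.162).

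Genes of resorption were mostly higher. Of 16 resorption genes, 12 were at least 2-fold higher and 0 lower, with a median of 7.34, but 9 of the 16 also served to name the osteoclast-like nuclei and are no separate evidence. The highest were Slc9b2, a sodium/proton exchanger, at 495 (136 to 4104), Mmp9, a gelatinase, at 187 (50.7 to 1558), and Itgb3, the integrin chain of the sealing zone, at 133 (22.7 to 5361), all of them naming markers. Slc9b2, Mmp9, Itgb3, Calcr and Car2 had at most 2 UMIs in macrophage-like nuclei and could enter the comparison through osteoclast-like nuclei alone, so these counts describe the list. Among the 7 genes that did not name the nuclei, 5 were higher. They were Ppargc1b, a regulator of mitochondria, at 23.8 (17.3 to 33.5), the bicarbonate exchanger Slc4a2 at 9.19 (4.72 to 19.3), the integrin chain Itgav at 5.49 (4.75 to 6.36), the sorting nexin Snx10 at 3.06 (2.45 to 3.82) and Car2. All were named after their values were seen. Car2, the carbonic anhydrase that supplies protons, was at 21.7 against the floor of 3 UMIs, with an interval that starts at 16.3. Of the fusion list, 5 of 6 genes were compared, 1 was higher and 2 were lower. Cd44, a hyaluronan receptor, was at 2.30 (1.89 to 2.80), Cd9 at 1.05 (0.453 to 2.23) and Adam8 at 0.508 (0.265 to 0.904), and the lower ones were Cd47 (0.450) and its receptor Sirpa (0.441). The median of the fusion list was 0.508. Of the CSF1 receptor and its ligands, 2 of 3 genes were compared, Csf1r and Il34, and 1 was higher, Il34. It had 11 UMIs against 0 and a ratio of 10.4 against the floor, with an interval that starts at 7.10. Il34 too could enter the comparison through osteoclast-like nuclei alone.

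Regulators of RANKL in stromal cells were compared between all 177 skeletal lineage-like and the other retained nuclei, where 18.0% of 14255 genes were at least 2-fold higher and 23.7% at least 2-fold lower. Of 10 listed genes, 6 were higher and 1 lower, with a median of 4.30 beside 0.904 for all genes. Ror2, a receptor for WNT5A, was at 72.0 (45.1 to 122), Pth1r, the parathyroid hormone receptor, at 17.6 (10.9 to 30.1), and Lgr4, which can also bind RANKL, at 16.7 (10.8 to 26.7). The lower gene was Tnfsf10, which encodes the ligand TRAIL, with 0 UMIs in skeletal lineage-like nuclei and a ratio of at most 0.294.

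**Figure D5:**
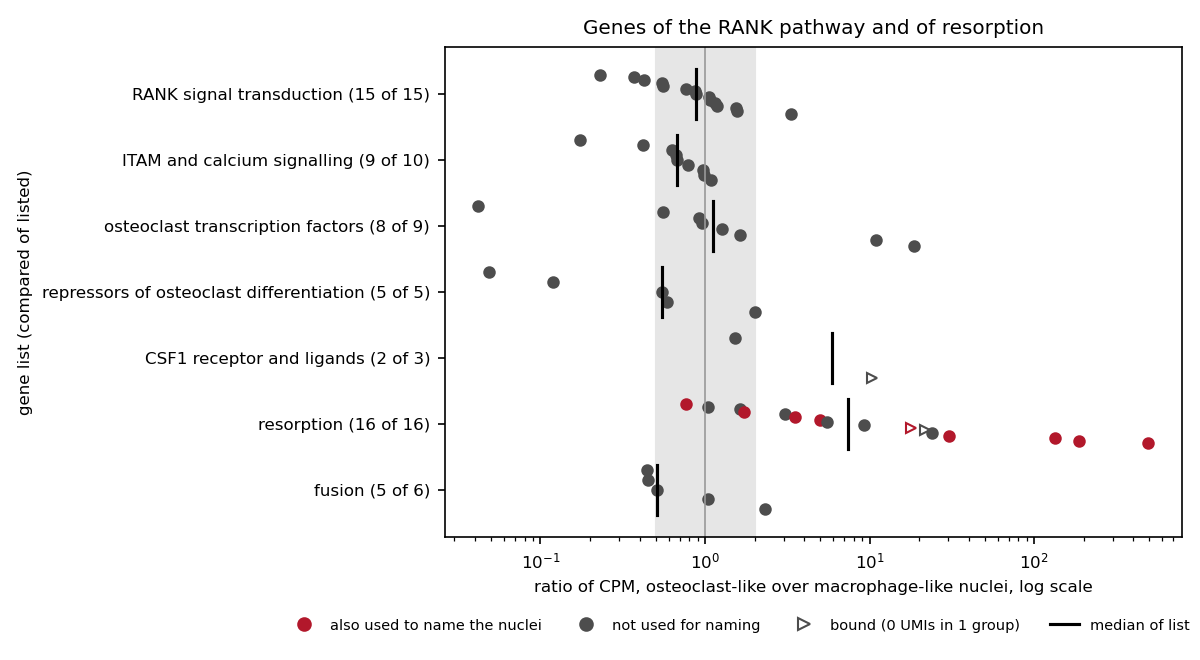
Ratio of CPM in osteoclast-like over macrophage-like nuclei, on a log axis, for the genes of 7 lists with at least 10 UMIs in both groups together. Circles are genes, red where the gene was also used to name the osteoclast-like nuclei, open triangles are bounds, vertical bars are list medians and the grey band spans 2-fold lower to 2-fold higher. Resorption has 12 of 16 genes right of the band, and repressors have 2 of 5 genes left of it.

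Genes with a profile like the summed osteoclast-side members were sought over 15 populations among 10450 genes, by the Pearson correlation of log2(CPM + 10). The populations come from 1 library and differ in depth, so the values describe the profiles. The 8 most alike were Edem1 (0.946), Atp6v1d (0.941), Frrs1 (0.925), Slc37a2 (0.923), Lpcat1 (0.910), Atp6v1b2 (0.901), Gnptab (0.898) and Shtn1 (0.898). Atp6v1d and Atp6v1b2 encode subunits of the vacuolar proton pump, and Slc37a2 was a naming marker. Within the members, each gene correlated with the sum of the other 7 between 0.614 for Dcstamp and 0.807 for Acp5. Most like Tnfrsf11b were Gm41724 (0.879), Slc2a10 (0.875), Sema3d (0.853), Col22a1 (0.853) and Smpd3 (0.831), and most like Tnfsf11 were Gm9801 (0.979), Greb1l (0.966), Bmp5 (0.961), Megf6 (0.937) and Chrdl1 (0.930). The stromal profiles rest on 21 and 23 UMIs in retained nuclei.

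The filters removed 317 barcodes that held a large part of some members. They held 1551231 of the 5899407 UMIs of all barcodes. Of single genes, they had 58.8% of the Acp5 UMIs and 41.3% of the Ctsk UMIs of all barcodes, but 9.18% of the Oscar and 10.3% of the Dcstamp UMIs. Barcodes with at least 5% mitochondrial UMIs (293) carried 153 of the 154 removed Acp5 UMIs. Of the removed barcodes, 7 had at least 5 osteoclast-side genes, with 10.9% to 52.7% mitochondrial UMIs, 64167 UMIs in all and none of the 7 macrophage genes. In these 7 barcodes, chosen by the members they held, Acp5 was at 2259.7 CPM and Ctsk at 4379 CPM, 5.52 and 2.60 times the osteoclast-like level. Atp6v0d2 was at 0.556, Nfatc1 at 0.732, Oscar at 0.355 and Dcstamp at 0.280 times the osteoclast-like level, and Tnfrsf11a at 0.980 times (0.733 to 1.30). A single barcode held 92 of the 145 Acp5 UMIs and 147 of the 281 Ctsk UMIs. The 16 removed barcodes with more than 5000 genes held 10 Tnfrsf11b and 14 Tnfsf11 UMIs, against 18 of each gene in all retained skeletal lineage-like nuclei. As levels these were 20.8 CPM (9.97 to 38.2) and 29.1 CPM (15.9 to 48.8), against 17.5 CPM (10.4 to 27.7) for each gene, and the intervals overlapped. A single barcode held 8 of the 10 Tnfrsf11b UMIs.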

How the data were processed

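The authors counted reads with Cell Ranger 7.0.1 on mm10, intronic and exonic reads included, and deposited, for each gene and barcode, the raw counts of UMIs. The sample labels name a human reference, but all gene identifiers are mouse identifiers. From these counts nuclei were kept at 200 to 5000 genes with mitochondrial UMIs below 5% and ribosomal UMIs below 2%. They were clustered with Seurat 5.3.0 in R 4.3.3 with the study's filters, components and resolutions, but on this library alone, where the study integrated it with a day 5 fracture library not analysed here. Clustering used 2000 variable genes without the 10 members, mitochondrial and ribosomal content regressed out, 30 components and resolution 1.0, and again within immune (20 components, resolution 1.5) and skeletal nuclei (15 components, resolution 0.5). A name asked for at least 3 markers with 3 or more UMIs and a fold of at least 1.5. Its markers pooled also needed a fold of at least 1.5, with a marker among the 100 leading genes (10 in clusters of low depth). No other class could have more markers among the 10 leading genes. The Mmp12/Gpnmb-led cluster had 4 macrophage markers and a pooled fold of 1.76, and the Hmox1/Ptgr1-led cluster 3 and 1.20. Neither had a macrophage marker among its 100 leading genes, so both stayed without a finer name. The members and lists were chosen with earlier results of these data known, and naming rules were set after an exploratory clustering had been seen. Named genes were the members, up to 3 genes of each list with the highest ratio, the 10 leading genes of the cluster and the genes most alike in profile. Intervals were exact Poisson for levels, Clopper-Pearson for shares and conditional binomial for ratios of levels (CPM). A UMI count of 0 was set to 3 UMIs for the level it allows and for the value of a ratio, but not for the interval of a ratio. Genes needed 10 UMIs in the groups compared. The ratio of levels and its interval were tested on simulated counts, and thinning was checked to give no value above the deposited one. Clustering, naming, co-detection and profile likeness were not tested in this way. Scrublet in scanpy 1.11.5 looked for doublets. Gene positions come from GENCODE vM21 (mm10). Further tools were pandas 2.3.3, scipy 1.17.1 and numpy 2.4.6 under Python 3.11.15. Alternatives changed the clustering, filters, naming, depth and member threshold. 1 further repressor was left out of the repressor list and is not reported here.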

Additional observations from a re-analysis of the deposited data

How the results depend on the processing

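Of 82 values of the 6 main results under alternatives, 65 lay within the main interval and 17 outside it. A change of direction could be read for the summed ratio alone, and its 15 values all stayed above 1. The other main results are shares or levels without a direction. The nuclei called by the doublet caller (0) changed nothing, and naming from Acp5, Ctsk and Oscar gave the main values again. Both alternatives therefore repeat the main values among the 65. Assigning each nucleus by its own marker UMIs, without clusters, gave 74 osteoclast-like nuclei (7.28% of retained), of which 52.7% had at least 3 genes, and a summed ratio of 7.22 in place of 11.6. The summed ratio was 9.94 under 0.5% mitochondrial UMIs, 13.4 without a mitochondrial limit and 10.1 after thinning. At least 3 genes were detected in 100% of osteoclast-like nuclei with the members kept among the variable genes, 20 components, the 0.5% limit, 500 genes or nothing regressed out, and in 65.6% after thinning. With at least 2 genes the shares were 100% of osteoclast-like and 45.8% of macrophage-like nuclei, and after thinning 0% of macrophage-like nuclei had 3. Thinned skeletal lineage-like nuclei gave 45.2 CPM of Tnfsf11 and 0 CPM of Tnfrsf11b, against 17.5 CPM each, from few UMIs. For single genes, 89 of 104 ratios of osteoclast-like over macrophage-like nuclei lay within the main interval, and all stayed above 1, from 1.64 to 477. The alternatives without a mitochondrial limit, without the top 10% of doublet scores and with a wider macrophage definition (ratio 11.1) were chosen after seeing the data. No paired analysis was possible because there is 1 library per condition. Levels near the floor of 3 UMIs, those of Tnfsf11 and Tnfrsf11b above all, are limited by depth.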

Other observations

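In the day 1 post-fracture library, which was left out of every comparison, the 10 genes had between 19 UMIs (Ocstamp) and 566 UMIs (Nfatc1) over 48987 barcodes. Of 5523 barcodes with at least 200 genes, 6 had at least 3 of the 8 osteoclast-side genes and 0 had at least 5, at a median of 382 UMIs per barcode. In that library Nfatc1 was the 1 member whose level in these barcodes differed from that in barcodes with fewer than 200 genes beyond counting error (ratio 1.33, 1.11 to 1.59), and Tnfrsf11a was at 0.951 times (0.766 to 1.17). Day and injury differ together between this and the MTI library, so the libraries were not set against each other.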
